A study of Caenorhabditis elegans with 609 samples.

Results

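The major sperm protein (MSP) genes of *Caenorhabditis elegans* were taken as the genes whose name in the Ensembl annotation of the WBcel235 genome begins with msp-. There were 31 such genes among the 30374 annotated genes with any count, and each had a single transcript. MSPs are small cytoskeletal proteins, and the growth of their filaments pushes the crawling sperm of nematodes forward. Sperm also release MSP as a signal, which starts the maturation of oocytes and the contraction of the gonadal sheath that surrounds them. A hermaphrodite makes its sperm late in larval life, before its germline turns to oocytes, and the msp genes are transcribed in developing sperm cells and not in the finished sperm.

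Poly(A) RNA of whole hermaphrodites of wild strains had been sequenced from independently grown cultures, which were synchronized and collected as young adults once embryos were first seen. The groups are the strains themselves, with no treatment or transgene, and they include N2, the laboratory strain whose genome is the reference, and CB4856, a genetically distant wild strain. After the selection of cultures by their distances, 559 cultures were used, from 145 strains with 3 cultures each and 62 strains with 2. Totals of estimated counts over all 608 cultures ran from 15461168 to 280262722 with a median of 28772489, and replicate cultures of the same strain gave the error. The RNA is that of whole animals, so that fewer sperm or germ cells and less RNA per cell cannot be told apart.

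All 31 members were annotated as protein-coding genes of 1 exon with no untranslated region. The annotated coding sequence with its stop codon has 384 bases in 28 of them, 360 bases in msp-32 and 234 bases in msp-58 and msp-74. The genes lie on 2 chromosomes, 13 on II and 18 on IV, and fall into 5 clusters when neighbours under 200 kb apart are joined. On II, 10 genes from msp-3 to msp-50 span positions 4785898 to 5200180 and 3 genes from msp-63 to msp-64 span 5797065 to 5810330 (WBcel235). On IV, 9 genes from msp-55 to msp-65 span 5055631 to 5316906, 7 genes from msp-76 to msp-77 span 9689015 to 9895014, and msp-36 and msp-38 lie at 10095433 and 10143357. Many members are near-copies of each other. Reads that fit several transcripts were divided among them by the model of Kallisto, so the level of 1 member can hold reads of another, and the sum over all members is free of that division.

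The summed level of the members differed widely among cultures and strains. It is given in normalized TPM, the deposited TPM (abundance relative to all transcripts of a culture, corrected for length) divided by a factor for each culture. Over the 559 cultures the sum had a lowest value of 49.5, a median of 5105 and a highest value of 21321, a 430-fold range. At its highest, msp transcripts took 1.63% of all raw TPM of a culture, and the median was 0.515%. Strain means on the log2 scale ran from 6.76 in NIC515 to 14.18 in JU2131, a 171-fold range, with a standard deviation (SD) of 1.54 among strains. The SD among cultures of a strain was 0.79 on the same scale. Broad-sense heritability (H2), the strain variance as a share of strain and residual variance, was 0.772 (SE 0.024) for the sum. These values rest on the selection of cultures. Of the 49 cultures that the distances removed, 34 lay more than 4-fold from the mean of the kept cultures of their strain in the summed msp level, 19 of them higher and 15 lower. With all 608 cultures H2 of the sum was 0.604, and the SD among cultures of a strain was 1.05.

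The 5 strains with the highest means were JU2131, JU3140, JU397, JU2610 and JU2234, and the 5 with the lowest were NIC515, ED3049, CB4856, ECA592 and ECA594. JU2131 had 20407, 15496 and 20376 in its 3 cultures, and JU3140 had 17430, 18560 and 19334. NIC515 had 291, 49.5 and 88.8, and ED3049 had 76.7 and 614 in its 2 cultures. Every one of the 15 cultures of the highest strains, from 13199 upwards, lay above every one of the 14 cultures of the lowest strains, which reached 614, as the choice of strains by their means would give. CB4856, with the third lowest mean, had 200.7, 91.3 and 592. N2 lay near the middle, with 6319, 3953 and 3560. Total counts were alike in both sets, 17851661 to 53363708 in the highest strains and 16197195 to 43321436 in the lowest.

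Cultures of 1 strain also differed, and most so in strains of low sum. The highest culture was over 4 times the lowest in 36 strains and under 1.5 times in 86, with a median of 1.78. The largest ratio was 16.4 in ECA189, whose cultures had 3521, 215 and 1991. WN2050 came next with 189, 2056 and 2748, a ratio of 14.5. In the plot of sums by strain the points are tight on the right and spread over more than a factor of 10 on the left.

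**Figure D1:**
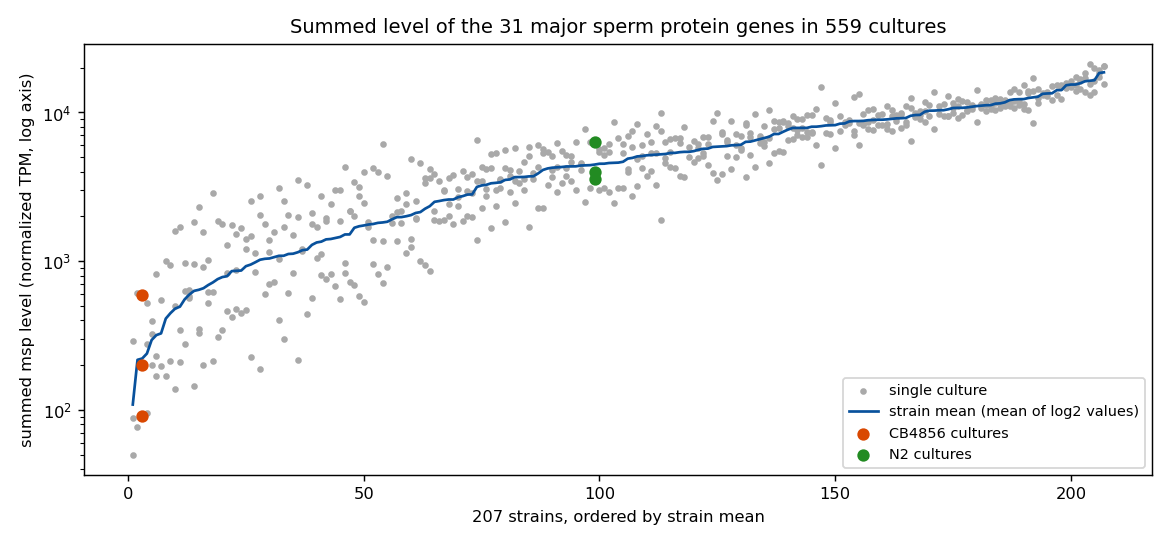
Summed level of the 31 msp genes in normalized TPM (y axis, log scale) in each of the 559 cultures (points), with the strains on the x axis in the order of their means (line). The cultures of CB4856 lie near the left end, between 91.3 and 592, those of N2 near the middle, between 3560 and 6319, and the spread among cultures of a strain is wider on the left.

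Of the 31 members, 27 were well expressed, with medians over cultures from 82.0 to 294.6 normalized TPM. The 5 with the highest medians were msp-59 with 294.6, msp-51 with 266, msp-57 with 259, msp-31 with 257 and msp-81 with 242. All of these encode MSP of the usual length, and no member stood far above the rest, since msp-59 had 5.80% of the sum at its median. The other 4 members were low. The median was 8.78 for msp-63 and 0.377 for msp-74, whereas msp-32 was listed at 0 in 382 cultures and msp-58 in 488.

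The members at the low end were high in single strains. msp-32 had 44.8, 19.3 and 16.5 normalized TPM in the 3 cultures of XZ1516, and 7.49, 3.58 and 3.39 in ECA363. msp-74 had 198, 147 and 138 in XZ1516, 126, 75.6 and 79.1 in ECA363, and 16.1 and 27.7 in ECA745. ECA745 also had 3.58 and 10.4 of msp-32, so these 3 strains had counts of both genes, which were at or near 0 in N2 (0.159, 0 and 0.202 for msp-32 and 0.691, 0 and 0 for msp-74). msp-58 was highest in DL238, with 8.19 and 19.05 in 2 cultures and a value near 0 in the third culture.

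The design asks which genes differ among strains beyond the spread among cultures. Estimated counts were summed per gene and tested over all strain coefficients by edgeR with its quasi-likelihood F-test and Benjamini-Hochberg adjustment. All 29 members in the test were called (adjusted p under 0.05), against 96.3% of the 16260 genes tested, so that the calls themselves do not set the msp genes apart. msp-32 and msp-58 did not pass the expression rule and were not tested. F ranged from 7.17 in msp-78 (adjusted p = 7.97e-58 by edgeR) to 23.0 in msp-50 (adjusted p = 2.42e-129 by edgeR), and the median over all genes was 4.45. The likelihood ratio test of DESeq2 called 1 of the 29 members, msp-63, and 4.31% of the genes, but its dispersion estimates were at the highest value, 174, in 95.7% of genes, and the fit counts as failed.

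The variation of the members was large in size. The median SD of strain means was 1.64 on the log2 scale over the 29 members and 0.37 over all genes, and the median SD among cultures of a strain was 0.79 and 0.28. H2 had a median of 0.798 over the members and 0.546 over all genes, and 90.8% of genes lay below the median of the members. Other genes of sperm, described further on, were close to the members, with a median H2 of 0.778 over 20 genes of sperm function and 0.783 over 28 genes of other sperm proteins. With all 608 cultures the median of the members was 0.651. H2 was highest in msp-50 (0.919), msp-19 (0.898), msp-36 (0.872), msp-79 (0.863) and msp-53 (0.855). It was lowest in msp-74 (0.705), msp-78 (0.757), msp-40 (0.760), msp-113 (0.764) and msp-57 (0.767). All 29 values were above the median of all genes.

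The members largely went up and down together. Over the 406 pairs of members, Pearson's r of strain means on the log2 scale had a median of 0.81, and 88 pairs were over 0.9. The highest was 0.99 for msp-38 and msp-45, which lie on different chromosomes, and the lowest was 0.24 for msp-19 and msp-74. The points are the strains, which share libraries, depth and reads between members, so r is a description. The balance between the chromosomes moved little. The log2 ratio of the summed members on II to those on IV had a median of −0.76, from −1.55 in JU2862 to −0.23 in NIC528, with an SD of 0.21 among strains and 0.08 among cultures of a strain.

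To separate the members from their common rise and fall, the share of each was taken as log2(member + 0.5) minus the log2 of the summed level. Shares were far steadier among cultures of a strain than levels. The SD among cultures had a median of 0.17 for shares and 0.79 for levels over the 29 members, and the share had the higher H2 in 23 of them. H2 of the share was 0.984 in msp-36, 0.975 in msp-19, 0.974 in msp-49, 0.971 in msp-76 and 0.970 in msp-79. At the other end it was 0.513 in msp-63, 0.593 in msp-45 and 0.6004 in msp-38. Reads that fail to match in a strain, or are divided among near-copies alike in all its cultures, would also count as strain variance. How far they enter H2 of the shares was not tested.

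**Figure D2:**
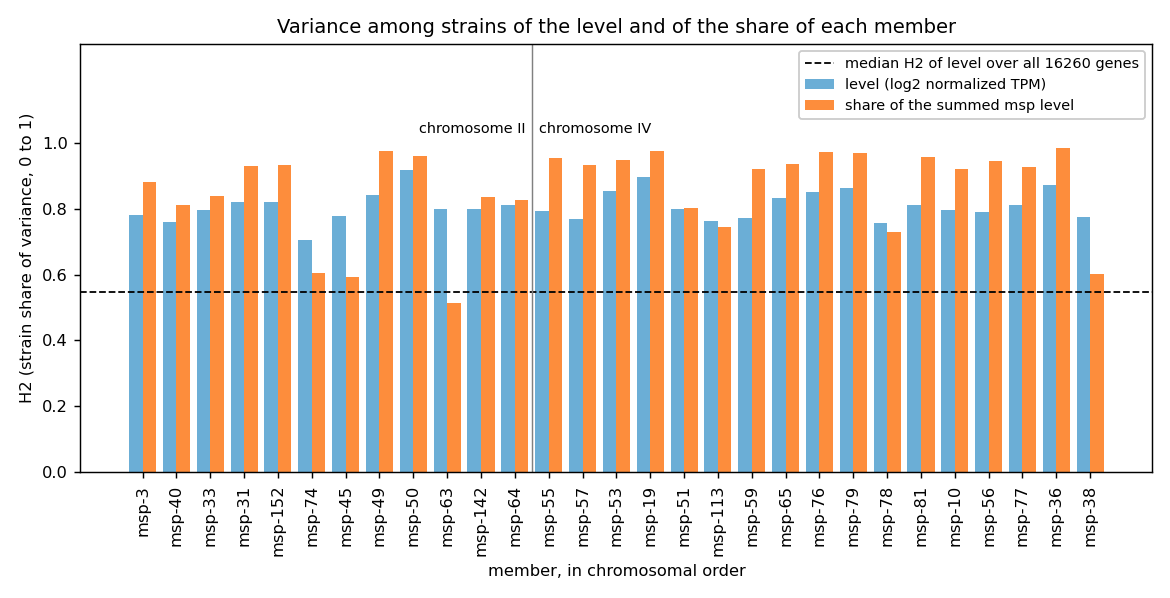
H2 (y axis, from 0 to 1) of the level and of the share in the summed msp level for the 29 tested members, in chromosomal order on the x axis, with II left of IV. All bars of levels stand above the dashed line at 0.546, the median of all 16260 genes, and the bars of shares are the taller ones in 23 members.

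Single strains had a low share of 1 or more members while they kept the others, and in some of them next to no transcript of the member was counted. Less transcript and reads that did not match the sequence used for a strain cannot be told apart in these tables. A strain was taken as low in a member when the share was at least 3 log2 units below the median of strains in every culture, among the 27 members with a median of at least 10 normalized TPM. This gave 148 pairs of a strain and a member, in 20 members and 105 strains. By the level of the member in place of its share the rule gave 238 pairs in 95 strains, and 111 of the 148 pairs were among them. Of these strains 77 were low in 1 member and 28 in 2 or more, and 102 strains were low in none. The pairs split into 65 on II and 83 on IV, and msp-50 alone made 52 of those on II. The members screened were 8 and 2 in the clusters of II, and 8, 7 and 2 in those of IV. In 8 of the pairs every culture had 0 counts of the member. Cultures of both years stood behind 93 of the pairs. Among all strains, low or not, 122 had selected cultures of both years. In strains with a small sum the pseudocount keeps the share from falling far, so the rule can miss low members there.

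msp-50 was low in the most strains, 52. Over the 141 cultures of these strains its level had a lowest value of 0, a median of 3.55 and a highest value of 11.3, against 0, 170 and 1376 in the other 418 cultures. The strain means of its share were in 2 separate ranges with few between them, 63 strains at 3 or more log2 units below the median, 7 strains at 1 to 3 below and 137 strains within 1. The neighbouring gene msp-49 had a lower share in the same strains, with deviations from −1.81 to −0.80 and a median of −1.39, against −5.24 to 0.77 with a median of 0.32 in the other strains. Of these other 155 strains, 36 also had msp-49 more than 1 log2 unit below. The 155 include 18 strains whose mean share of msp-50 was itself 1 or more below, down to −4.71. Reads of msp-49 and msp-50 may be divided between them, and this was not tested. In BRC20067 msp-50 had 0.425 and 1.20 and msp-49 16.7 and 43.8 normalized TPM, while msp-59 had 95.3 and 212.

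msp-19 was low in 28 strains, to unlike degrees. In ECA703, ECA812, GXW1, JU2581, JU2879, MY16 and MY23 the mean deviation was −9.67 to −7.44, with at most 1.38 normalized TPM of msp-19. ECA745 had −5.11 and ECA363 −4.18, and the others lay from −3.68 to −3.07. The level had a median of 21.1 over the 77 cultures of the 28 strains, with 104 as the highest value. Its median was 149 in the other 482 cultures. By strain means, 42 strains were at 3 or more below the median and 30 at 1 to 3 below. The lowest mean was −9.67 in JU2581, whose cultures had 0 to 0.363 normalized TPM of msp-19. JU397 and JU3140, which were among the 5 highest strains by the sum, were low in the share while the level was 52.8 to 104 and 78.9 to 90.35. Several strains lay close to the limit of 3, with the nearest cultures of JU346 at −3.001 and JU1246 at −3.004 just inside it and that of JU1793 just outside at −2.997. Over these 28 strains, msp-55 at the start of the same cluster had a median deviation of 0.99, against −0.05 in the other strains.

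msp-36 was low in 7 strains, and its share lay within 1 log2 unit of the median in all 200 others. JU2526 had 0 and 0.174 normalized TPM, beside 126 and 130 for msp-38, its neighbour. In XZ1516 the cultures had 0, 2.87 and 0.157. JU2234, which was among the 5 highest strains by the sum, had between 11.3 and 11.7. The level over the 20 cultures of the 7 strains had a median of 0.078, against 259 in the other 539 cultures. In each of these 7 strains the share of msp-56 was raised, by 1.413 to 1.961 log2 units, and in 11 of the other 200 strains it was raised by 1 or more.

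Members of the cluster near 9.7 to 9.9 Mb of IV were low in 26 pairs. MY16 and NIC231 were low in both msp-76 and msp-79, and XZ1515 in both msp-79 and msp-56. msp-79 was low in 10 strains, with a median of 2.20 in their 25 cultures and 141 in the others. In XZ1515 it had 0, 0 and 0.566 beside 336, 372 and 676 for msp-78. msp-76 was low in 7 strains, with a median of 2.48 in 21 cultures, against 225 in the others. In NIC231 it had 11.5, 3.56 and 2.56, and msp-10 had 821, 695 and 647 in the same cultures. The share of msp-10 was higher by 0.82 to 1.36 log2 units in these 7 strains.

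The remaining low members had 12 strains or fewer. msp-65 was low in 12 strains, with a median of 9.58 in their cultures and 87.4 in the others. msp-53 was low in 6 strains, and the 3 cultures of ECA189 and the 2 of ECA745 had 0 counts of it. msp-152 was low in 4 strains and msp-31 in 3, and the 3 strains low in msp-31 were all among the 4 of msp-152. In JU3134 msp-31 reached 4.39 and msp-152 0.734 in the higher of 2 cultures, with sums of 5040 and 5859. msp-10, msp-49 and msp-81 were each low in 3 strains, and msp-51 and msp-77 in 2. msp-3, msp-33, msp-56, msp-57, msp-59 and msp-142 were each low in a single strain. That of msp-33 was CB4856, with 0 in all 3 cultures, beside 12.1, 5.12 and 43.7 for msp-40. CB4856 also had the lowest strain mean of msp-64, −0.89 on the log2 scale, where 0 normalized TPM gives −1. The rule did not list msp-64 as low there.

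Of the 28 strains low in 2 or more members, 26 had them in more than 1 cluster. ECA703 was low in msp-49, msp-53, msp-19, msp-59 and msp-65, and ECA745 in msp-31, msp-152, msp-53, msp-19 and msp-65. In ECA703 msp-59, the member of highest median over all cultures, had 31.8 and 10.99, whereas msp-51 had 808 and 400.4. ECA363, NIC231 and XZ1515 were low in 4 members. XZ1515 was low in msp-50, msp-65, msp-79 and msp-56, and its 783, 877 and 1440 of msp-10 included the highest value of that gene in any culture. N2 was low in none, with deviations from −0.36 in msp-19 to 0.28 in msp-53. In the 148 pairs the member whose share was most raised was msp-55 in 42, msp-10 in 27, msp-56 in 25 and msp-53 in 22, and it was in the cluster of the low member in 58. The most raised member is that of the strain, so a strain low in several members counts it once for each. Over all strains, low or not, the share of msp-55 was raised by 1 log2 unit or more in 51. A link of low and raised members was not tested.

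**Figure D3:**
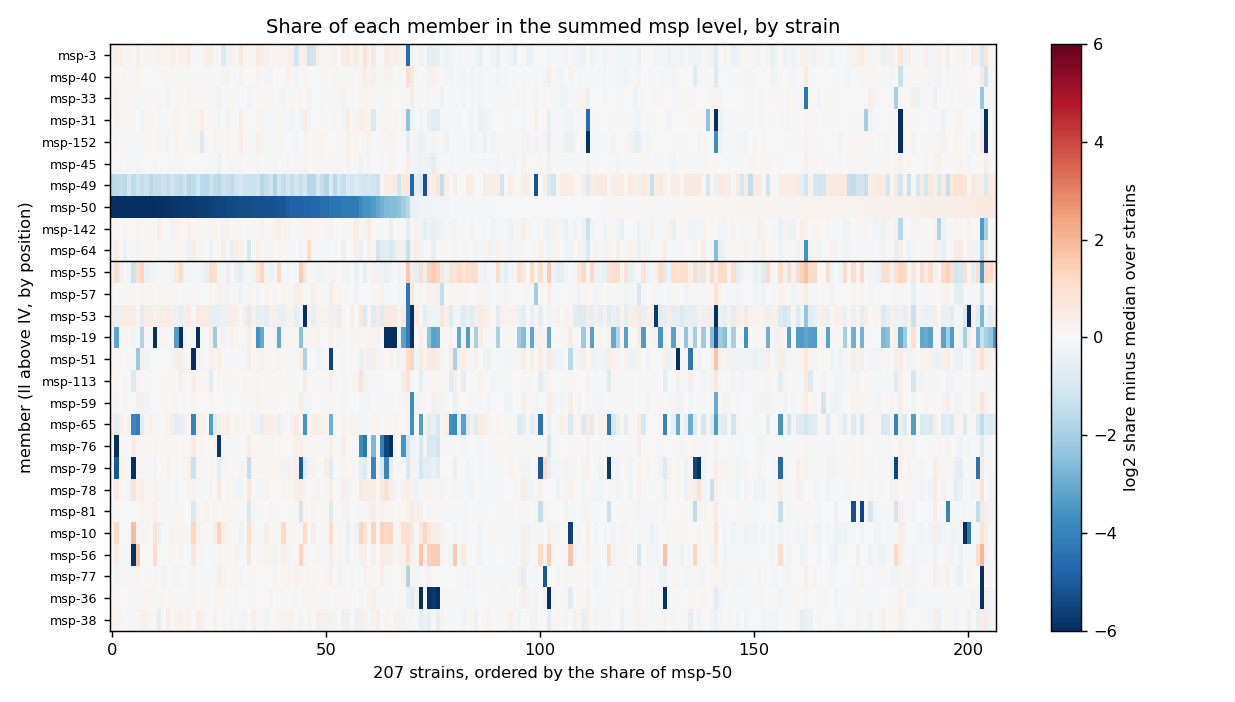
Deviation of the log2 share of 27 members (y axis, those of II above the black line) from the median over strains, in the strains on the x axis, ordered by the share of msp-50. Blue is lower and red higher, colours end at 6 log2 units, and the left block of 63 strains has msp-50 at 3 or more below and a paler blue in msp-49.

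The labels give the sequencing pool of each culture with a year, and those ending in _2020, the later year, were compared within strains with those ending in _2019, the earlier year. Over the 109 strains with cultures from both years whose labels name 1 pool, the summed level averaged 12.09 on the log2 scale in the later year and 12.10 in the earlier year. The mean difference of the later minus the earlier year was −0.01 (SE 0.08), and 59 strains were higher and 50 lower in the later year. Single strains moved far in either direction, from −2.70 to 2.64. None of the 29 members passed the test of limma with Benjamini-Hochberg adjustment over all genes, and 0 passed at an unadjusted p under 0.05. Of the 16260 genes, 49.4% were called. The median SE was 0.081 over the members and 0.033 over all genes. Over all genes the median absolute difference was 0.073, a size that could not be called in the members. Of all genes, 15.2% were called higher and 34.2% lower in the later year, which is 2464 and 5562 genes, whereas CPM of the estimated counts gave 3202 higher and 4085 lower.

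The members' differences ran from −0.16 in msp-74 to 0.15 in msp-51, with SEs around 0.08. The 95% interval of msp-51 was −0.07 to 0.38 and that of msp-49 was −0.30 to 0.00, so differences of that size remain within the error. With all 608 cultures in place of the selected ones, msp-77, msp-51, msp-31 and msp-152 were called higher in the later year, at 0.35, 0.36, 0.27 and 0.26 on the log2 scale (adjusted p from 0.00357 to 0.0232 by limma). Year, sequencing pool and other differences between the earlier and later cultures cannot be told apart. The labels also hold a code, GZ, GZr or GZm, whose meaning they do not give and which entered no test.

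**Figure D4:**
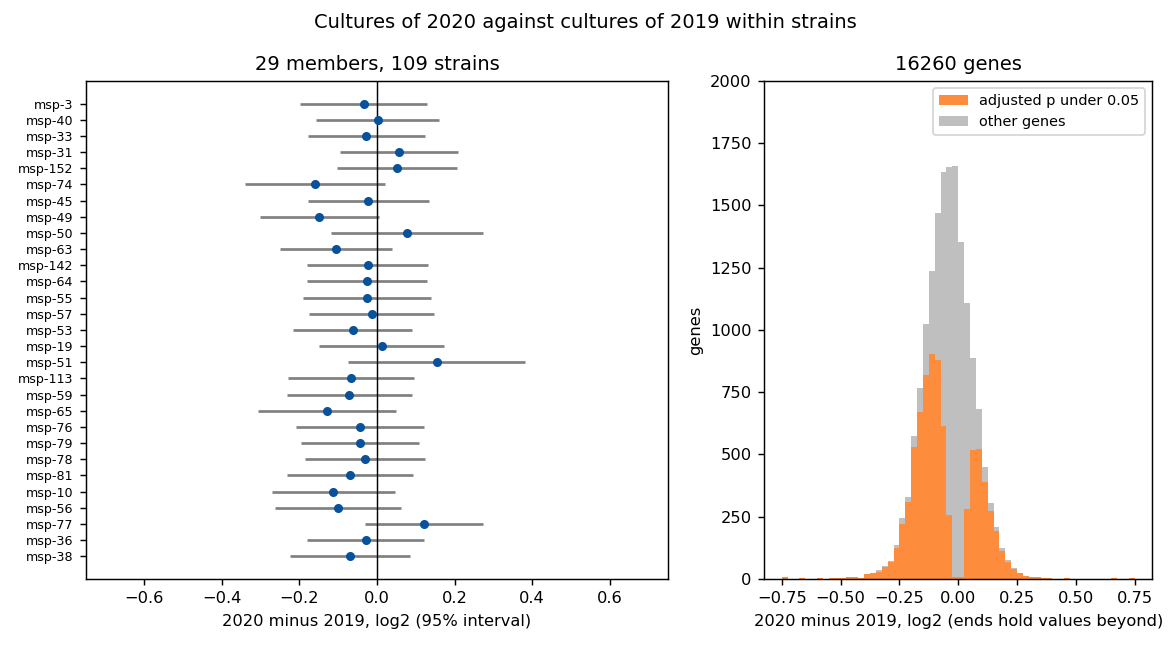
Difference of the later minus the earlier year on the log2 scale (x axes), for the 29 members on the left with 95% intervals over 109 strains, and for 16260 genes on the right as counts of genes, with those called in orange. All intervals of members cover 0, and the called genes lie on both sides of it.

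The genes most like the msp genes were looked for among the others by Pearson's r of strain means with the summed msp level. Over all strains compared, the 10 highest were nsph-3.2, R10E9.2, F53B6.4, msrp-2, nspd-2, T27E7.1, Y106G6H.13, nspd-1, F34D10.8 and gipc-2, with r from 0.994 to 0.989. The nspd genes encode small nematode-specific peptides of the male germline. nspd-1 had a median of 660 normalized TPM, with 7.70 as the lowest and 4706 as the highest value, and msrp-2 had 283, 1.54 and 1689. The likeness also held within strains, where deviations of cultures from the strain mean gave r of 0.928 to 0.982 for the 10 genes. Over all other genes r had a median of 0.26 and reached −0.84 at the lowest, and 733 genes were over 0.9. Genes on I, III and IV are among the 10.

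Other genes of sperm followed the msp genes. Of 21 genes of sperm function, 20 were tested and all 20 were called among strains by edgeR, against 96.3% of all genes, with r to the summed msp level from 0.81 to 0.98. spe-11, whose protein enters the egg with the sperm, had the highest median, 14.2 normalized TPM, with r of 0.98. spe-6, a kinase needed in spermatogenesis, had a median of 6.25 and r of 0.86, and spe-41, a calcium channel needed for fertilization, a median of 2.94 and r of 0.89. By year, 10 of the 20 were called lower in the later year and none higher, against 34.2% and 15.2% of all genes, with a median of −0.12, among them spe-12 at −0.24. The summed level of the list was 154 to 190.0 normalized TPM in the 5 strains of highest summed msp and 5.47 to 9.68 in the 5 of lowest.

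Of the 28 ssp, msd, nspd, gsp-3 and gsp-4 genes, which encode other small sperm proteins, some with an MSP domain, and sperm phosphatases, all 28 were called among strains, against 96.3% of all genes. Their median r was 0.96, and the sum of the list had r of 0.995 with the summed msp level. Exceptions were nspd-5, nspd-8 and ssp-37, with r of 0.32, 0.00 and 0.38 and H2 of 0.944, 0.964 and 0.908. Of the 3 regulators of transcription in the male germline, elt-1 and snpc-1.3 were called and spe-44 was not (adjusted p = 1 by edgeR), with r of 0.39, 0.21 and −0.21. Their summed level was 13.7 to 17.9 in the 5 highest strains and 15.7 to 20.0 in the 5 lowest.

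Genes of oocytes and embryos ran the other way. All 9 genes of oocyte and eggshell were called among strains, against 96.3% of all genes, and had negative r, from −0.74 in chs-1, the chitin synthase of the eggshell, to −0.48 in cbd-1. Their sum was 1632 to 2247 normalized TPM in the 5 strains of highest summed msp and 2880 to 3686 in the 5 of lowest, with r of −0.65 over strains and −0.36 over deviations of cultures within strains. By year, 6 of the 9 were called higher and none lower in the later year, against 15.2% and 34.2% of all genes. The 5 early embryonic genes were called among strains as well, with r from −0.77 in end-1, a regulator of endoderm, to −0.32 in end-3. Their sum was 0.591 to 0.848 and 2.25 to 4.88 in the same sets of strains, with r of −0.77 over strains and −0.45 within strains. These embryonic genes were near the floor, with medians from 0.194 in end-1 to 0.542 in ceh-51 and a lowest value of 0 in each. How far the stage of the animals at harvest takes part in the msp differences was not tested.

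The 12 genes of the response to MSP in oocytes and sheath were mixed, and 6 of them had positive r. Their sum had r of −0.71 with the summed msp level over strains and −0.37 within strains. Of these genes oma-1 and oma-2 are also in the list of oocyte and eggshell. The gap junction gene inx-14 had r of −0.82 and vab-1, which encodes a receptor of MSP, r of −0.61, whereas kin-1, the catalytic subunit of protein kinase A, had r of 0.79. By year, 3 of the 12 were called higher and 6 lower in the later year, against 15.2% and 34.2% of all genes. The 6 yolk genes had r from −0.05 to 0.16, and their sum was 8929 to 14500 in the 5 highest strains and 7291 to 12120 in the 5 lowest. The 7 genes of moult and late larva had r from −0.01 in mlt-10 to 0.63 in nas-37, a metalloprotease of the moult. Their sums were 22.8 to 60.2 in the 5 highest strains and 14.6 to 22.4 in the 5 lowest. Over all strains the sum had r of only 0.26 with the summed msp level, and its highest value, 602 in NIC258, lay outside both sets.

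Of 10 genes with expression in males, 4 were tested and called among strains, against 96.3% of all genes, and pkd-2, lov-1, cwp-1, cwp-2, cwp-3 and cwp-5 did not pass the expression rule. Summed over the list, r with the summed msp level was 0.06, and the sum was 48.7 to 61.2 in the 5 highest strains and 0.416 to 57.7 in the 5 lowest. Nearly all of it was plg-1, which makes the mating plug and had a median of 49.9. Its r was 0.05. The other tested genes were low, with medians from 0.163 to 0.337, and had r of 0.60 in mab-3, 0.46 in cwp-4 and 0.25 in try-5.

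**Figure D5:**
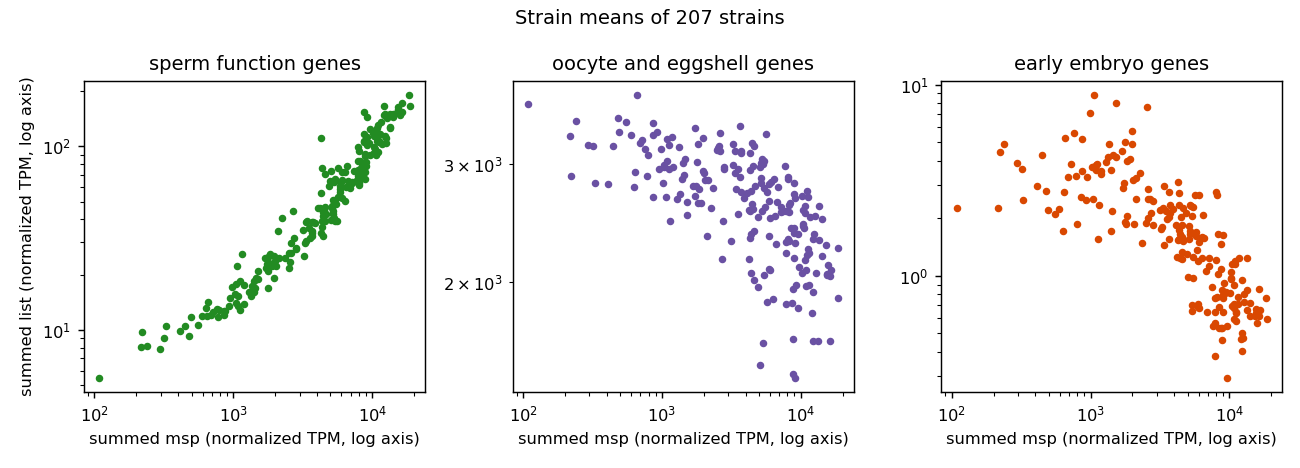
Strain means of the summed level of 3 lists (y axes, normalized TPM on log scales) against the summed msp level (x axes, log scale), 1 point per strain. Sums of sperm function genes are higher in strains with a higher msp sum (r = 0.96 over strain means), and those of oocyte and eggshell genes (r = −0.65) and early embryonic genes (r = −0.77) are lower.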

How the data were processed

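The submitters' processing notes and the study's methods name fastp 0.20.0 and kallisto 0.44.0. The authors trimmed the reads and pseudoaligned them to transcriptomes in which the single-nucleotide variants of each strain replaced the bases of N2. They deposited 2 tables without normalization between samples, 1 of estimated counts and 1 of raw TPM, each for 65330 transcripts and transposable elements. No columns of per-sample values were left unused, but the 1 sample of strain JU2800 was kept out of the comparisons. Transcripts were joined to genes of the Ensembl WBcel235 annotation, 58525 by transcript identifier and 6635 by sequence name, and summed per gene.

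Transcripts of protein-coding genes and pseudogenes counted as reliably expressed when at least 10 strains had 5 or more normalized counts in all their samples, which left 26388 transcripts of 16260 genes. Cultures far from others of their strain were removed by running the distance rule of the study again, which kept 559 of 608 samples here. The study reports a slightly larger number of samples kept, so the 2 sets are not the same. Raw TPM was divided by factors of 0.422 to 1.32 computed as in sleuth and log2(normalized TPM + 0.5) was analysed. Hyper-divergent regions were not masked here, although the study masked them per strain. No 2 samples of a strain held identical values.

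Estimated counts were rounded to whole numbers and tested among strains with edgeR 4.0.16, in 1 fit over all strains, with the dispersion trend taken from 400 genes drawn with a fixed seed. Years were compared with limma 3.58.1 on differences within strains, with a variance trend on mean expression (chosen after the default trend had been run), and H2 came from restricted maximum likelihood, which was checked against lmer of lme4 1.1.37 (largest difference 3e-07 over 31 members). These were tested on simulated data. The likelihood ratio test of DESeq2 1.42.0 was also run, but failed on simulated data with this many strains. The software was R 4.3.3 and Python 3.11.15. Reads are not independent molecules, so totals of counts describe depth only.

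The members, the gene lists, the tests and the rule for named genes were chosen with earlier results of these data known. Named were the members with the 5 highest median levels, the 5 highest and 5 lowest H2, and any with a strain low in it. The 5 highest and 5 lowest strains by the sum with N2 and CB4856 were named too, as were the 10 genes most like the sum and examples from the lists. Sequences of transcripts, promoters and proteins were not used here, so shared stretches between members were not counted.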

Additional observations from a re-analysis of the deposited data

Results flagged for a closer look

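The single culture of JU2800, a strain left out of the comparisons because it had 1 sample, held msp transcripts well above the 3 counts that a zero allows. Its summed level was 9840 raw TPM from 62376 estimated counts, with 2 members at 0, and 468 of the 559 cultures of the other strains had a lower sum (median 5151).

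Both members outside the test also had counts in some cultures. msp-32 reached 44.8 normalized TPM and had 5 or more estimated counts in 15 cultures. msp-58 reached 19.05 normalized TPM and had 5 or more in 3 cultures. The groups are of 2 or 3 cultures, so no test for outlying cultures was made.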

How the results depend on the processing

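The calls among strains held for 29 of 29 members with all samples, with DESeq2 size factors, with limma with and without the sequencing pool as a covariate, without replicate 1, 2 or 3 in turn and without the deepest library. They held for 31 of 31 with no filter and for 5 of 5 summed clusters. Only the likelihood ratio test of DESeq2 differed, with 1 member and 701 of 16260 genes called, against 15651 by edgeR. Its dispersion was within 1% of its highest value, 174, in 95.7% of genes, so this count says nothing of stability.

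H2 had a median over members of 0.651 with all samples, 0.835 with the sequencing pool removed, 0.925 for shares in place of levels, and 0.773 to 0.810 without replicate 1, 2 or 3 of the strains with 3 cultures. H2 of the summed level was 0.604 with all samples, 0.813 with the pool removed and 0.744 to 0.784 without a replicate, while the SD of strain means stayed between 1.43 and 1.595. With all samples 4 members were called higher in the later year and the median difference of members was 0.17, and none was called under the other alternatives among the 29. With no filter msp-58 was called lower. Over all genes the year calls numbered 8026, 4739 with all samples and 624 without replicate 3, which left 25 strains. Pairs of a strain and a member numbered 238 by the level in place of the share, of which 111 were among the 148, and 155 to 161 without a replicate. Beyond what each alternative changes, the cause was not tested. The alternatives added after the data were seen are the cluster sums, the deepest library, the shares, the default limma trend, all samples for the low members and the replicates left out of the summed level and the low members.

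No paired analysis was possible because replicate numbers follow the order of deposition and pair no cultures across strains. The sequencing pool and the year, which do link cultures of different strains, entered as a covariate and as the comparison within strains. The sum over members sharing most of their sequence was not run, as sequences were not used here. Groups of 2 or 3 cultures, and the division of reads among near-copies, limit the values of single members. No confidence interval for counting was set, and the 3 counts that a zero allows cover counting error only.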
